A study of Cricetulus griseus with 3 samples.

Results

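The translation initiation and elongation factors on a mouse cDNA microarray were compared between S-1 cells and parental CHO cells treated with DAPT. CHO, from the ovary of the Chinese hamster, is an established cell line. S-1 is a line derived from it through an intermediate line. S-1 stably expresses constructs of NCT-GST, PS1, APH1-a2-HA and Flag-PEN2. These code for the subunits of γ-secretase, a protease that cleaves membrane proteins such as Notch. The paper also marks APP as overexpressed in S-1. S-1 cultures grew under G418, puromycin, zeocin, hygromycin and blasticidin and received 0.05% DMSO for 24 h, and CHO-WT cultures, which were not transfected, received the γ-secretase inhibitor DAPT at 10 µM in 0.05% DMSO for 24 h. Each of 3 arrays carried RNA of 1 S-1 culture and 1 CHO-WT culture in different dyes (biological triplicates, n = 3 arrays throughout), with S-1 RNA in Cy3 on arrays 1 and 2 and in Cy5 on array 3. On each array the 2 sides differed at once in the line, its constructs, the selection drugs and the inhibitor, and the parts of these in a ratio cannot be told apart. In bulk RNA, fewer cells with a transcript and less of it per cell cannot be told apart either.

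The members were the spots whose annotation gave a single mouse gene symbol starting with Eif or Eef and a digit, or with Etf1, Pabpc or Paip. There were 135 such spots of 16928 tested, and they represented 58 genes of the 8146 with a single name. Among the 58 genes, 27 had 1 spot and 31 had 2 or more, up to 10 for Eef1a1. A further 7 spots named a factor together with another gene and were left out. Of the member symbols, 52 stood in the RefSeq gene list of the hamster.

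Translation of an mRNA begins when eIF2 brings the initiator tRNA to the small ribosomal subunit, which eIF1, eIF1A, eIF3 and eIF5 hold ready for start codon recognition. The eIF4 factors bind the cap of the mRNA and unwind its leader, the poly(A)-binding proteins bind its tail, and eIF5B joins the large subunit. eEF1A then delivers aminoacyl-tRNAs, eEF2 moves the ribosome along, and Etf1 recognises stop codons. Cells adjust the overall rate mainly at eIF2, whose phosphorylation by stress kinases blocks its recharging by eIF2B, and at eIF4E, which the eIF4E-binding proteins sequester. Most of these factors are abundant in dividing cells such as CHO.

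All values are log2 ratios, S-1 over CHO with DAPT, so that a positive value means more signal in S-1. A ratio gives no level of either side, and values of different genes are compared only as differences between the cells. A gene value is the mean over the spots of a gene. Direction was not stated in the sample labels and was taken from the study's own clone lists, from the dye-swapped array, which ran the same way as the others, and from the transfected subunits. Psenen, the mouse name of PEN2, stood at 2.84, 3.11 and 3.33 and Aph1a at 1.85, 2.17 and 2.04 on arrays 1, 2 and 3. Over the 135 member spots, which are not independent, arrays 1 and 2 correlated with r = 0.910, and array 3 correlated with them at 0.845 and 0.783. The median SD of a member spot between arrays was 0.107.

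More factor genes were higher than lower in S-1 cells. By limma with Benjamini-Hochberg adjustment over all 8146 genes at a threshold of 0.005, 16 of the 58 factor genes were higher in S-1 (27.6%; 12.4% of all genes), 4 were lower (6.90%; 10.3% of all genes) and 38 did not pass. The median gene value was 0.13 for the factors and 0.01 for all genes, and 39 of the 58 factors lay above 0 (67.2%; 51.9% of all genes). On single spots, 26 of 135 were higher (19.3%; 9.68% of all tested spots) and 10 were lower (7.41%; 8.52% of all tested spots). All 36 of these spots had the same sign on the 3 arrays, which selection on those arrays favours. Of all 135 member spots, 95 had the same sign on the 3 arrays (70.4% against 67.6% of all tested spots). The higher share among factor genes was not kept without array 2 (2 higher, Eif1ad and Eif3d, or 3.45%, against 3.89% of all genes, and 0 lower) or without array 1 (3 higher, the same genes and Eif5a, or 5.17%, against 5.19%, and 0 lower), while without array 3, the dye swap, 25 were higher (43.1% against 21.2%) and 7 lower. With control spots kept in the fit of spots, 5 member spots were higher (3.70%, against 3.84% of all spots) and 3 lower (2.22% against 2.87%), so that the higher share among factor spots was not kept there either.

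**Figure D1:**
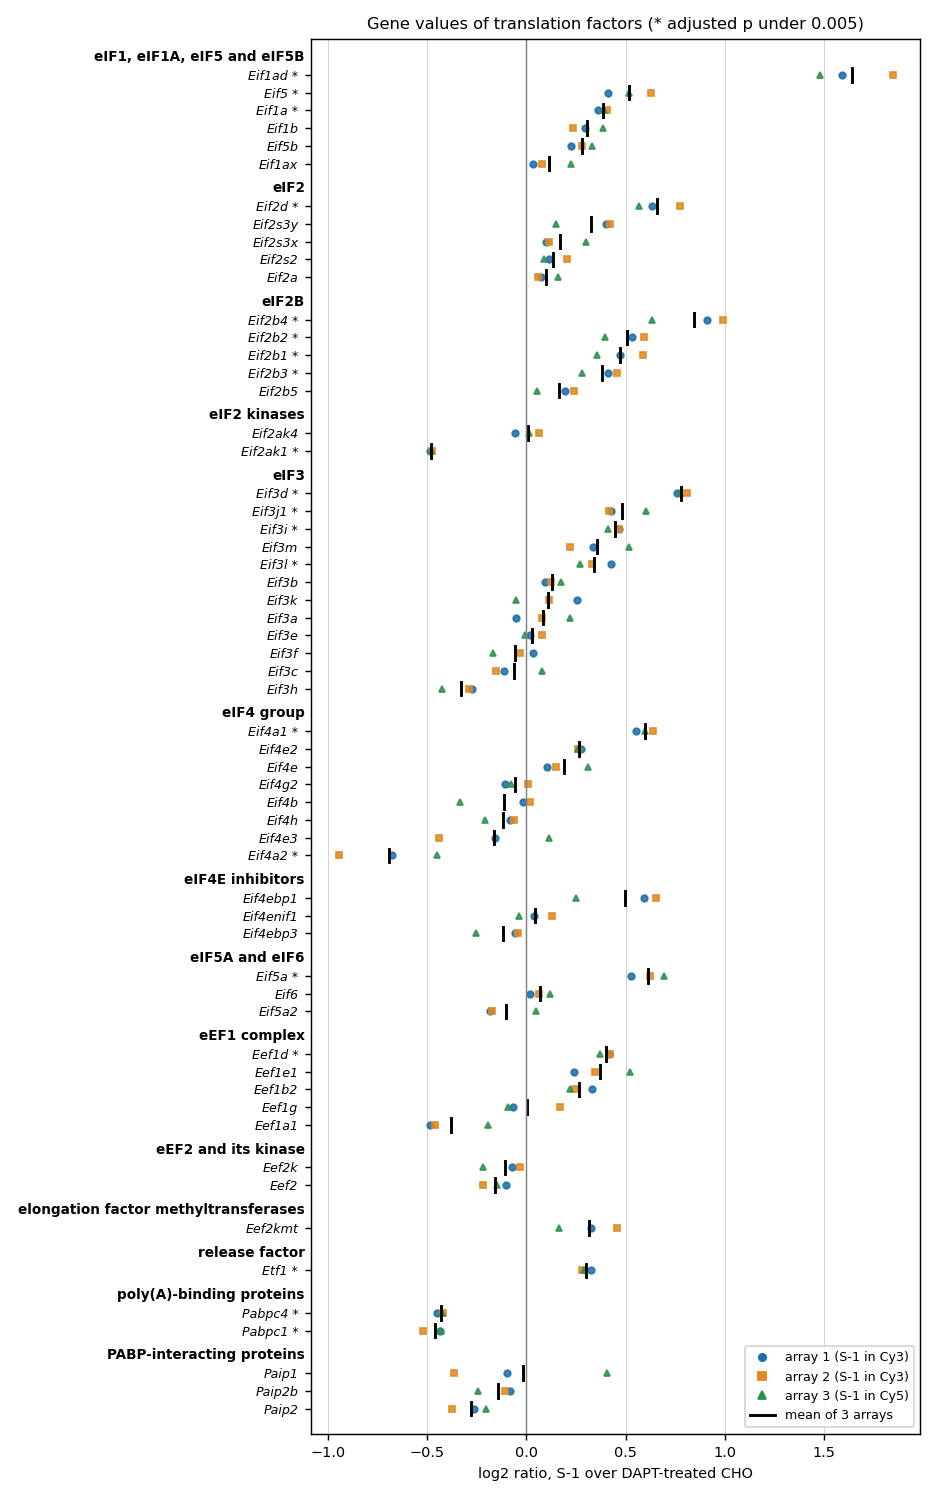
Gene values of the 58 translation factor genes, grouped by role, with the log2 ratio (S-1 over CHO with DAPT) on the horizontal axis. Points are the single arrays, black bars the mean of 3 arrays and asterisks an adjusted p under 0.005 by limma. Eif1ad stands apart at 1.64, 4 of 5 eIF2B subunits carry an asterisk above 0, and both poly(A)-binding proteins carry one below 0.

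**Figure D2:**
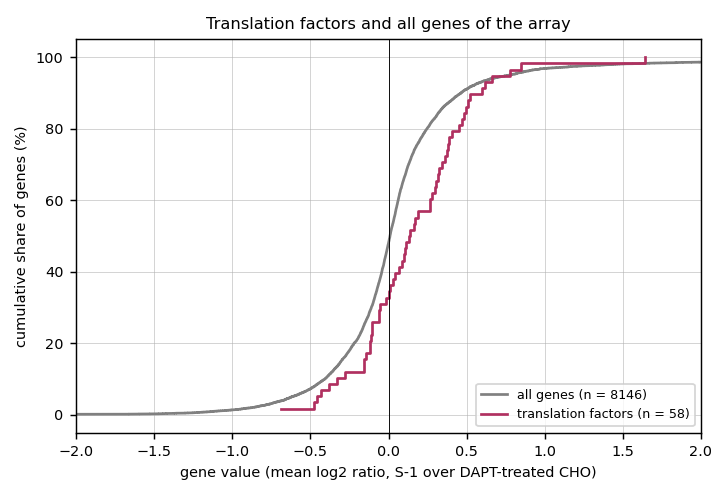
Cumulative share of genes (vertical axis, percent) at or below a gene value (horizontal axis, log2 ratio, S-1 over CHO with DAPT, with the few values beyond the axis ends not drawn), for the 58 translation factors and all 8146 genes. The factor curve lies to the right of the curve of all genes around its middle, with medians of 0.13 and 0.01.

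The eIF2B subunits were the group with the largest share of passing genes among groups of 5 or more. eIF2B is the exchange factor that reloads eIF2 with GTP, and of its 5 subunit genes 4 passed, all higher in S-1, with a median gene value of 0.47 over the 5. Eif2b4, the delta subunit, gave 0.91, 0.99 and 0.63 on arrays 1, 2 and 3. Its mean of 0.85 is a 1.80-fold ratio (95% interval 0.64 to 1.05, adjusted p = 0.00126 by limma). Eif2b2, the beta subunit, gave 0.53, 0.59 and 0.40 (mean 0.51, limma adjusted p = 0.00185). Both were above 0 on every array and lowest on the dye-swapped one. Eif2b1, the alpha subunit, gave 0.47, 0.59 and 0.36 (mean 0.47, limma adjusted p = 0.00296). Eif2b3, the gamma subunit, gave 0.41, 0.45 and 0.28 (mean 0.38, limma adjusted p = 0.00397). The same order of arrays, with array 3 lowest, held for all 4 of these genes. Each of the 4 rests on 1 spot, so no second clone can be set beside it. None of them passed without array 1 or without array 2. Eif2b5, the catalytic epsilon subunit, did not pass with a mean of 0.16 over 2 spots (95% interval 0.02 to 0.30, limma adjusted p = 0.0605). The clone behind Eif2b3 bears the name of a different gene, Nkg7, in the study's own list, so its identity is uncertain.

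Among eIF2 and its kinases, 1 of 5 and 1 of 2 genes passed, in opposite directions. Eif2d, which can deliver the initiator tRNA in place of eIF2 and is grouped with it here for its name, gave 0.63, 0.78 and 0.57 (mean 0.66, 1.58-fold, limma adjusted p = 9.53e-04), and both of its clones passed, at 0.81 and 0.51. The eIF2 subunit genes did not pass. Eif2s2, the beta subunit, had a gene value of 0.14 (95% interval 0.02 to 0.26) in which 3 clones at 0.44, 0.43 and 0.34 were averaged with another at -0.67. That clone gave -0.58, -0.56 and -0.87 on arrays 1, 2 and 3 and passed in the lower direction, and it lay below the other clones of Eif2s2 on every array. Spots named Eif2s3x and Eif2s3y, for the X-linked and Y-linked mouse copies of the gamma subunit gene, had gene values of 0.17 and 0.32. CHO came from an ovary, so the Eif2s3y value cannot be read as that of a Y-linked transcript. Which RNA its spot bound was not tested. Eif2a, a separate initiation factor, had a gene value of 0.10. Eif2ak1, the heme-regulated kinase of eIF2, was lower in S-1 at -0.49, -0.48 and -0.48 (mean -0.48, 1.39-fold lower, limma adjusted p = 9.51e-04), with nearly the same value on each array. Eif2ak4, known as GCN2 and activated by uncharged tRNA, had a gene value of 0.01 (95% interval -0.11 to 0.13). The stress kinases PKR and PERK had no spot of a single name.

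Gene values of the factors of start codon recognition and subunit joining lay above 0. All 6 genes grouped under eIF1, eIF1A, eIF5 and eIF5B had gene values above 0, as did 51.9% of all genes. Their median was 0.35, and 3 passed. The highest value of any member belonged to Eif1ad, which codes for a protein with an eIF1A-like domain and is grouped here by its name. Its single clone gave 1.59, 1.85 and 1.48 (mean 1.64, 3.12-fold, 95% interval 1.43 to 1.85, limma adjusted p = 1.9e-04). Eif5, the GTPase-activating protein of eIF2, gave 0.41, 0.63 and 0.52 (mean 0.52, limma adjusted p = 0.00199), with 2 of 3 clones passing. Eif1a gave 0.36, 0.41 and 0.39 (mean 0.39, limma adjusted p = 0.00184), with 2 of 4 clones passing. All of these values were above 0 on every array. Eif1ax, the X-linked copy of eIF1A, did not pass at 0.11 (95% interval -0.03 to 0.26). Eif1a exceeded Eif1ax by 0.33, 0.33 and 0.16 on the 3 arrays (mean 0.27, SD 0.09). Eif1b, a relative of eIF1, missed the threshold at 0.31 (limma adjusted p = 0.00645). Eif5b, the GTPase of subunit joining, did so at 0.28 (limma adjusted p = 0.00661). Its clones stood at 0.62, 0.38 and -0.17, and of these the first passed.

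eIF3, the large scaffold of initiation, was divided among its subunits. Of 12 subunit genes, 4 were higher, 0 lower and 8 did not pass, with a median of 0.12. Eif3d, a subunit that can itself bind the mRNA cap, gave 0.76, 0.81 and 0.77 (mean 0.78, 1.72-fold, limma adjusted p = 2.51e-04). Eif3j1, a loosely bound subunit, gave 0.43, 0.42 and 0.60 (mean 0.48, limma adjusted p = 0.00231). Eif3i gave 0.47, 0.47 and 0.41 (mean 0.45, limma adjusted p = 0.00125), and both of its clones passed. The spread between arrays was small beside each of these means. Eif3l gave 0.43, 0.33 and 0.27 (mean 0.34, limma adjusted p = 0.00468), close to the threshold. Eif3m had a gene value of 0.36 that did not pass, though 1 of its 3 clones did at 0.49. Eif3a, the largest subunit, was the best covered with 9 spots, which ranged from -0.09 to 0.37 around a gene value of 0.08 (95% interval -0.08 to 0.25). Eif3h had the lowest gene value of the complex at -0.33 (95% interval -0.46 to -0.20, limma adjusted p = 0.00588), just short of the threshold. Eif3b, Eif3k, Eif3e, Eif3f and Eif3c lay between -0.06 and 0.13.

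In the eIF4 group, which binds and unwinds the capped end of the mRNA, the helicase paralogs lay on opposite sides of 0. Eif4a1, the main eIF4A helicase of dividing cells, gave 0.55, 0.64 and 0.60 (mean 0.60, 1.51-fold, limma adjusted p = 6.23e-04), and each of its 4 clones passed, between 0.50 and 0.71. Eif4a2, the closely related second eIF4A, gave -0.68, -0.94 and -0.45 (mean -0.69, 1.61-fold lower, 95% interval -0.95 to -0.43, limma adjusted p = 0.00462) on its single clone. Eif4a1 exceeded Eif4a2 by 1.23, 1.58 and 1.05 (mean 1.29, SD 0.27), a difference that their opposite calls on the same arrays already imply. With 3 arrays, an exact sign-turn test of such a difference cannot give a two-sided p under 0.25, which is what it gave here. As a spot, adjusted over all spots instead of genes, the Eif4a2 clone did not pass (limma adjusted p = 0.00515). The other 6 genes of the group did not pass. The cap-binding protein Eif4e had a gene value of 0.19 over 4 spots (limma adjusted p = 0.0481), and Eif4e2, a cap-binding relative, 0.27 (limma adjusted p = 0.00557). Eif4g2, a relative of the eIF4G scaffold, had a gene value of -0.06 over 5 spots, and the helicase helpers Eif4b and Eif4h -0.11 and -0.12. Eif4e3 varied between arrays by more than its mean (-0.16, SD 0.28). The scaffold Eif4g1 had no spot of a single name.

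None of the 3 inhibitors of eIF4E passed as a gene. Eif4ebp1, the binding protein that mTORC1 phosphorylates, had a gene value of 0.50 (95% interval 0.27 to 0.73, limma adjusted p = 0.00919). One of its spots gave 0.87, 1.06 and 0.62 and passed at a mean of 0.85, and the other gave 0.31, 0.25 and -0.12. The passing spot lies at array positions that matched no named clone collection of the study's lists. Leaving out the 480 tested spots at such positions took all higher spots from 1638 of 16928 to 1238 of 16448. Lower spots went from 1442 to 1414. A pass as higher was thus common at these positions. Without the spots there the Eif4ebp1 gene value was 0.14 (limma adjusted p = 0.272). Eif4ebp3 and Eif4enif1, the nuclear shuttle of eIF4E, had gene values of -0.12 and 0.04.

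Eif5a, which helps ribosomes through difficult peptide bonds and carries the hypusine modification, was higher in S-1. It gave 0.53, 0.62 and 0.69 (mean 0.61, 1.53-fold, limma adjusted p = 8.86e-04). Its paralog Eif5a2 did not pass at -0.10 (95% interval -0.27 to 0.06). Eif5a exceeded Eif5a2 by 0.71, 0.79 and 0.65 (mean 0.72, SD 0.07). Eif6, which keeps ribosomal subunits apart, had a gene value of 0.07. How far a clone also binds RNA of a close paralog was not tested, here or for eIF4A, eIF1A and the gamma subunit of eIF2.

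**Figure D3:**
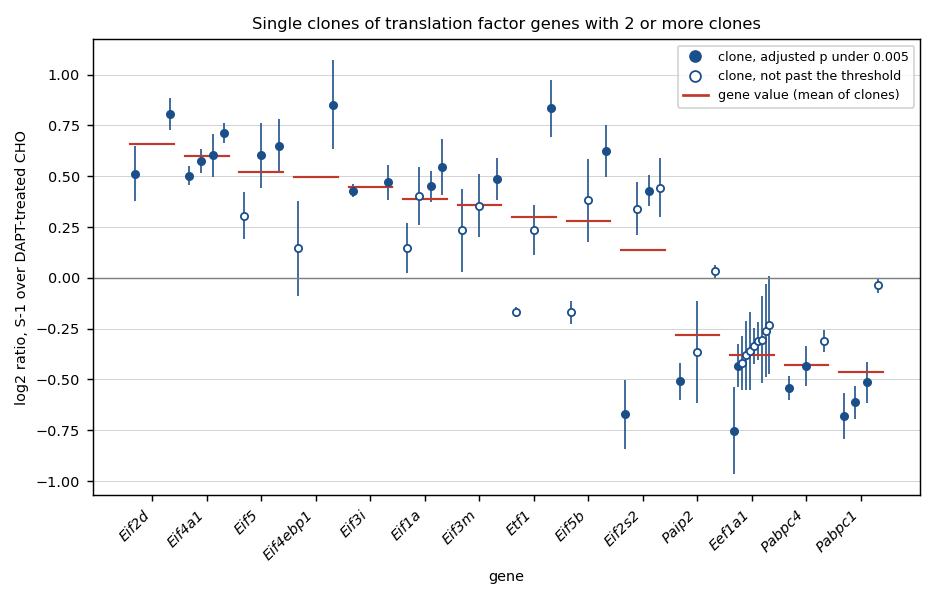
Single clones of the 14 named factor genes with 2 or more clones. The vertical axis is the log2 ratio (S-1 over CHO with DAPT), points are means of 3 arrays with SD bars, filled points passed the threshold of 0.005 and red lines are gene values. Eif4a1 clones lie together above 0. All Eef1a1 clones lie below 0, the lowest apart at -0.75. Eif2s2, Eif5b, Etf1 and Paip2 have clones on both sides.

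Elongation factors differed within the eEF1 complex. Eef1d, the delta subunit of the exchange factor that reloads eEF1A, was higher in S-1 at 0.42, 0.42 and 0.37 (mean 0.40, 1.32-fold, limma adjusted p = 0.00168). Eef1a1, the factor that carries aminoacyl-tRNA to the ribosome, had a gene value of -0.48, -0.46 and -0.19 on the arrays (mean -0.38, 95% interval -0.56 to -0.19, limma adjusted p = 0.0109) and did not pass. All 10 of its clones lay below 0, from -0.23 to -0.75, and 2 of them passed, at -0.43 and -0.75. Eef1d exceeded Eef1a1 by 0.90, 0.88 and 0.56 (mean 0.78, SD 0.19, exact two-sided p = 0.25, the smallest that 3 arrays allow). That pair was chosen after its values were seen. Without array 3 the Eef1a1 value was -0.47 and passed (limma adjusted p = 1.02e-04). In that setting S-1 was in Cy3 on every array, so dye and line cannot be told apart. There 19.3% of all genes passed as lower. Eef1b2, the beta subunit, had a gene value of 0.27 (limma adjusted p = 0.00835) and Eef1e1, a member of the multi-tRNA synthetase complex, 0.37 (limma adjusted p = 0.00895), both short of the threshold. Eef1g, the gamma subunit, had a gene value of 0.00 over 7 spots. One Eef1g spot had the highest SD between arrays of any member spot, with -0.06, 1.63 and -0.16.

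Eef2, the translocase, did not pass with a gene value of -0.15 over 5 spots (95% interval -0.27 to -0.04, limma adjusted p = 0.0452). All 5 of its spots lay below 0, from -0.03 to -0.27, and 0 passed. Its inhibitory kinase Eef2k had a gene value of -0.11 (95% interval -0.25 to 0.03) and Eef2kmt, the enzyme that methylates eEF2, 0.31 (95% interval 0.14 to 0.49, limma adjusted p = 0.0166). Etf1, the release factor that reads stop codons, passed with a gene value of 0.30 (0.33, 0.28 and 0.29, limma adjusted p = 0.00412). Its 3 clones nevertheless stood at 0.83, 0.23 and -0.17, and with the median of the clones in place of the mean the value was 0.23 and did not pass (limma adjusted p = 0.0306).

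The poly(A)-binding proteins were the group in which every gene was lower. Pabpc1, the main cytoplasmic protein on mRNA tails, gave -0.43, -0.52 and -0.43 (mean -0.46, 1.38-fold lower, limma adjusted p = 0.00138). Its clones stood at -0.68, -0.61, -0.51 and -0.04, and the first 3 passed. Pabpc4, an inducible relative, gave -0.45, -0.42 and -0.42 (mean -0.43, 1.35-fold lower, limma adjusted p = 0.0013), with 2 of 3 clones passing. In both genes every array lay below 0. Their partners did not pass. Paip2, which displaces poly(A)-binding protein from mRNA, had a gene value of -0.28 (limma adjusted p = 0.00975) with clones at 0.03, -0.37 and -0.51, of which the last passed. Paip2b stood at -0.14 and Paip1, an activator, at -0.02 with an SD of 0.39.

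**Figure D4:**
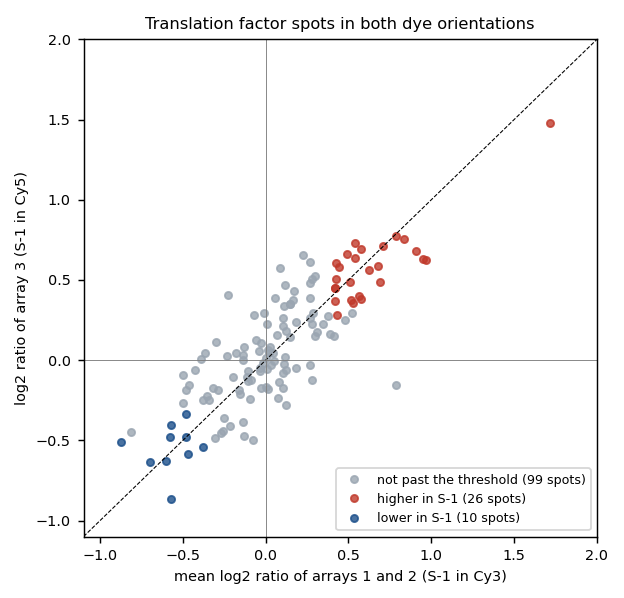
The 135 translation factor spots in both dye orientations. The horizontal axis is the mean log2 ratio of arrays 1 and 2 (S-1 in Cy3), the vertical axis that of array 3 (S-1 in Cy5), and the dashed line marks equal values. The 26 higher and 10 lower spots have the same sign in both orientations, which their selection on these same arrays favours.

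Clones of a gene are spots annotated with the same symbol, and their accord bears on how firmly a gene value can be read. Whether they are separate cDNAs of the same transcript was not tested. Of the 31 genes with 2 or more clones, 18 had all clones on one side of 0 and 13 had clones on both. The median range between clones of a gene was 0.26. In 3 genes (Eif4a1, Eif2d and Eif3i) every clone passed in the same direction. Each clone was also tested with limma against the mean of the other clones of its gene, a test added after the values were seen. Of 108 member clones, 9 differed (8.33%; 16.4% of all clones tested so), in Eef1a1, Eif2s2, Eif4ebp1, Eif5b, Etf1, Pabpc1 and Paip2. Tests of clones of the same gene are not separate. In a gene with 2 clones, such as Eif4ebp1, both give the same difference with opposite sign, and both are counted. The largest such difference was that of the Eif2s2 clone at -0.67, which lay 1.08 below the others.

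Genes around the factors were taken from lists of translation control, of which 41 of 61 genes had a value. Among these 41, 11 were higher (26.8% against 12.4% of all genes) and 4 lower (9.76% against 10.3% of all genes). These lists were not counted again without spots of no named clone collection, a setting in which 9.26% of all genes were higher. The other 26 of the 41 did not pass, and the median was 0.12. On the list of eIF2 phosphorylation and the stress response, 5 of 9 were higher (55.6%) and 1 lower (11.1%). Atf4, the transcription factor whose mRNA is translated when eIF2 is phosphorylated, gave 0.60, 0.83 and 0.73 (mean 0.72, limma adjusted p = 8.65e-04). Trib3, a target of Atf4, had a gene value of 1.06 and Ppp1r15a, the GADD34 subunit that directs dephosphorylation of eIF2, 0.85. Ppp1ca, the phosphatase it binds, stood at 0.83. Dnajc3, known as an inhibitor of eIF2 kinases, was the lower gene at -0.58 and was outside the 4 highest values of that list.

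Among 4 genes of termination and ribosome recycling, Gspt1, the GTPase partner of Etf1, was higher at 0.91 and Abce1, which splits ribosomes, at 0.36, and 0 were lower. Of 5 mitochondrial translation factors, 2 were higher and 0 lower. Gfm2, the mitochondrial recycling factor, gave 1.22, 1.28 and 1.26 (mean 1.25), and Mtif2, mitochondrial eIF2, had a gene value of 0.37. Of 11 genes of the mTORC1 and MAP kinase inputs, 1 was higher, the S6 kinase Rps6kb2 at 1.35, and 1 lower, the kinase Mtor at -0.55. Of 12 other helpers of initiation, the helicase Dhx29 was higher at 0.70, and Tpt1, the translationally controlled tumour protein, and Gigyf2, a translational repressor, were lower at -0.62 and -0.33. These values passed the same threshold of 0.005 in limma over all genes. Of all genes, 12.4% passed it as higher and 10.3% as lower.

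**Figure D5:**
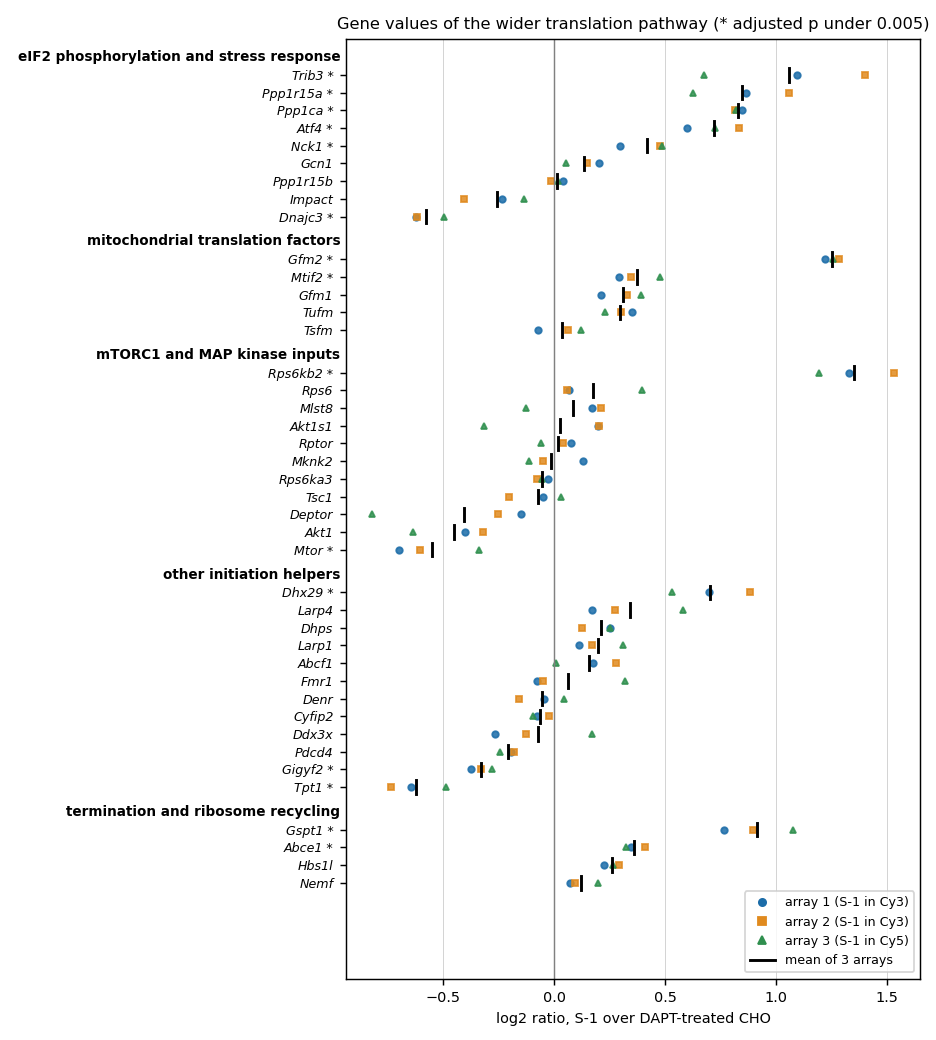
Gene values of the 41 measured genes of the wider translation lists, by list, with the log2 ratio (S-1 over CHO with DAPT) on the horizontal axis. Points are single arrays, black bars means of 3 arrays and asterisks an adjusted p under 0.005 by limma. Rps6kb2, Gfm2 and Trib3 lie above 1, and 5 of 9 genes of the eIF2 phosphorylation list carry an asterisk above 0.

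Member spots came almost wholly from one clone collection, marked H in the study's clone names (131 of 135). Fitted on H clones alone, 25 member spots were higher and 10 lower, against 6.84% and 8.58% of all H spots, and 16 member genes were higher and 4 lower, against 8.00% and 10.7% of all genes with H clones. Names were compared for 32 of the 36 passing spots. The study's lists gave the same symbol for 23 and another for 9, of which most are older names of the same gene, such as Lgtn for Eif2d.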

How the data were processed

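RNA of S-1 and DAPT-treated CHO cells was hybridised in 2 colours to 3 mouse cDNA arrays, 1 S-1 and 1 CHO culture on each. The authors scanned the slides, read them with GenePix Pro and normalised them in R and Bioconductor, with lowess per print-tip group and no background subtracted. The values used are the log2 ratios they deposited, 1 per spot and array. Intensities were not used here, so signal over background is not given, and precision is limited by how many arrays there were.

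Of 17664 spots, 736 at 23 block positions without any gene name were left out as controls. limma 3.58.1 in R 4.3.3 fitted each spot, and each gene as the mean of its spots, against 0 (lmFit, eBayes) with Benjamini-Hochberg adjustment over all spots or genes at the study's threshold of 0.005. Each array pairs its cultures. Tables and figures were made with Python 3.11.15, NumPy 2.4.6, pandas 2.3.3 and Matplotlib 3.10.9. The script was tested on simulated data.

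Gene symbols came from the platform's annotation. Clone names came from the study's clone lists, which were paired with spots by size of change. The listed fold changes were larger than the fold ratios given here by a constant factor, which the pairing allowed for. The columns of fold changes and p-values in those lists were not used as results. The members, role groups and lists were chosen with earlier results of these data known. Named genes were all members that passed as a gene or on a spot, the highest absolute value of a role group with neither (Eef2 and Eef2kmt), and up to 4 passing genes of each other list. The remaining members, and Dnajc3, are named to account for the counts. Alternatives were a threshold of 0.05, centring, scaling, quantile normalisation, dye as a coefficient, array weights, control spots included, unlisted spots left out, the median of a gene's spots and each array left out. H clones alone were added after the data were seen.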

Additional observations from a re-analysis of the deposited data

How the results depend on the processing

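Counts of translation factors past the threshold moved under several alternatives, and the cause was not tested. The main values were 26 spots higher and 10 lower, and 16 genes higher and 4 lower. At a threshold of 0.05 these were 48 and 29 spots and 26 and 8 genes, with dye as a coefficient 52 and 29 spots and 27 and 7 genes, and with array weights 40 and 24 spots and 25 and 7 genes. The share of all genes that passed moved too, to 24.4% higher and 21.8% lower at 0.05, 23.2% and 21.8% with dye, and 20.4% and 18.1% with weights. With the control spots included, 5 spots were higher and 3 lower, which is 3.70% and 2.22% of member spots against 3.84% and 2.87% of all spots, so that no excess of higher spots remained. Gene counts did not move, since control spots have no gene. Leaving out one array at a time gave 1 to 45 spots higher, 0 to 27 lower, 2 to 25 genes higher and 0 to 7 lower. The lowest counts came without array 2 and the highest without array 3. Among spots, 5.19% of members and 4.58% of all were higher without array 1, 0.741% and 1.55% without array 2, and 33.3% and 18.8% without array 3. Among genes these shares were 5.17% and 5.19%, 3.45% and 3.89%, and 43.1% and 21.2%. The excess of higher factors was thus kept without array 3 but, for genes, not without array 1 or 2. Without array 3, S-1 was in Cy3 on every array, so dye and line cannot be told apart there.

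Centring, scaling, quantile normalisation, the fit without unlisted spots, H clones alone and, for genes, the median of spots gave 24 to 26 spots higher, 10 or 11 lower, 16 genes higher and 4 or 5 lower. None of the 26 factor genes that passed as a gene or on a spot changed sign under the alternatives run for it (Eif4ebp1 has no H clone, so H clones alone gave it no value). Without unlisted spots the Eif4ebp1 value was 0.14 in place of 0.50. Eif3l did not pass after quantile normalisation (limma adjusted p = 0.00583), and Eif2s2 passed at 0.35 with the median of its spots (limma adjusted p = 0.00336).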
